A study of Homo sapiens with 10 samples.

Results

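Tetraspanins are small proteins that cross the membrane 4 times and gather integrins, receptors and proteases into patches of the plasma membrane or of endosomes. Some of them, above all CD9, CD63 and CD81, are the proteins by which extracellular vesicles are usually recognised. Others, the TspanC8 group, carry the sheddase ADAM10 to the cell surface, where it cleaves Notch and other membrane proteins. The genes described here are CD9, CD63, CD81, CD82, CD151, TSPAN3, TSPAN4, TSPAN5, TSPAN7 and TSPAN13, taken by name from the tetraspanin family, of which 23 further genes are described after them. The choice was made with earlier results of these data known. They are 10 of the 23585 genes in each of 2 tables of FPKM values (fragments counted per kilobase of transcript and per library size), and each stood on 1 row of both tables.

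The cells were SH-SY5Y, a human neuroblastoma line that the labels describe as neural progenitors, harvested for poly(A) RNA 72 h after treatment. The LncND siRNA group (3 libraries) received 100 nM of an siRNA against LncND, a long non-coding RNA of primates which, by the study's title, sequesters a microRNA and acts on Notch signalling. Its control group received a scrambled siRNA (3 libraries). The miR-143-3p mimic group (2 libraries) received 50 nM of a synthetic form of that microRNA, and its control group received a scrambled miRNA (2 libraries). No dose is given for the scrambled controls, all 4 groups share the cell line and the medium, and the level of LncND itself was not analysed here, so the depletion was not checked. Nothing in the labels tells whether replicates came from separate cultures, so each p-value reflects the spread among these libraries, and that spread may be technical.

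Estimated depth was 28.6 to 49.9 M fragments in the siRNA libraries and 15.6 to 40.6 M fragments in the miRNA libraries. Of 14 markers of noradrenergic neuroblastoma cells, 13 averaged at least 1 FPKM in every group, and TH was the one that did not. Of 12 blood and endothelial markers none did, with CD3E and HBB at the lowest listed value of 0.001 in every library, and of 10 Schwann and glial markers S100B alone did. LncND siRNA replicate 1 stood apart: the small Y RNA gene RNY4 was listed there at 1224670 FPKM, against 0.001 in the other libraries. Without RNY4 the FPKM of that library summed to 448145, the highest of the siRNA libraries, where the others summed to 423652 to 441809. Its log2 values correlated at 0.988 with LncND siRNA replicate 2 and 0.989 with replicate 3, against 0.996 between replicates 2 and 3.

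miR-143-3p recognises messenger RNAs mainly through its seed, bases 2 to 8 from its 5′ end. Its mature sequence is shown with the seed in capitals (RefSeq, GRCh38.p14, chr5:149428978-149428998, plus strand).
hsa-miR-143-3p: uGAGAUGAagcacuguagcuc
The 3′ UTRs of the genes (principal transcripts of GENCODE on GRCh38) were searched on the transcript strand for TCATCTC, which pairs with bases 2 to 8, and for CATCTCA, which pairs with bases 2 to 7 and has an A opposite base 1. Where the pair overlap as TCATCTCA they count as 1 match. A match was found in 3 of the 10 tetraspanin genes, against 21.7% of the 11215 genes searched among those tested with the mimic. The matched genes were TSPAN13 and TSPAN5, both of which fell with the mimic, and TSPAN3, which rose. Over all protein-coding transcripts searched, a match stood in 1 of 1 for TSPAN13, 1 of 2 for TSPAN5 and 1 of 6 for TSPAN3. Which transcripts the cells used was not examined. These are the sites in the members, in capitals, with 11 bases on either side, 5′ to 3′ on the transcript strand; the coordinates are those of the capitals.
TSPAN13, chr7:16783830-16783836, plus strand: atctgaacgtaCATCTCActggtataatt
TSPAN5, chr4:98471524-98471530, minus strand: atctgaatccaTCATCTCcctttcctgcc
TSPAN5, chr4:98470654-98470660, minus strand: gttgtcttactTCATCTCtgcccccacca
TSPAN3, chr15:77041933-77041939, minus strand: cgccacagtgaTCATCTCtatacacacac
These UTRs differ in length, with 1045 bases in TSPAN13, 2155 in TSPAN5 and 5431 in TSPAN3, against a median of 1120 over all genes searched, and a longer UTR holds a match more often by its length alone. The searched UTRs of CD9, CD63, CD81, CD82, CD151, TSPAN4 and TSPAN7 held neither string. A match is a string of letters here, not a measured site.

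The 10 genes spanned more than 2 orders of magnitude in level. On the FPKM scale, which is per length, CD63 was the highest in every group, followed in every group by CD81, CD151 and TSPAN3, and CD82 was the lowest. CD63, an endosomal and vesicle protein, averaged 238 ± 15.9 FPKM with LncND siRNA, 202 ± 5.47 with scrambled siRNA, 239 ± 2.51 with the mimic and 291 ± 4.03 with scrambled miRNA (SD, n = 3 in each siRNA group and 2 in each miRNA group). CD82, known as a suppressor of metastasis, averaged 1.18 ± 0.0890 FPKM with LncND siRNA, 1.14 ± 0.145 with scrambled siRNA, 1.30 ± 0.0436 with the mimic and 1.49 ± 0.243 with scrambled miRNA. CD63, CD81 and CD151 together made up 75.0% to 79.2% of the summed FPKM of the 10 genes in every library.

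The order of the genes in the middle differed between groups. CD9 came next after TSPAN3 with LncND siRNA and with the mimic, while in both scrambled controls TSPAN13 and TSPAN4 stood between them. Neighbours in the order had separate library ranges with 2 exceptions, which were TSPAN3 and CD9 with the mimic and TSPAN13 and TSPAN4 with scrambled siRNA. The summed FPKM of the 10 genes was 641 to 694 with LncND siRNA, against 516 to 529 with scrambled siRNA, and 695 to 718 with the mimic, against 700.3 to 718 with scrambled miRNA. The 2 tables were deposited separately, so a level in one is not compared with a level in the other by any test.

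**Figure D1:**
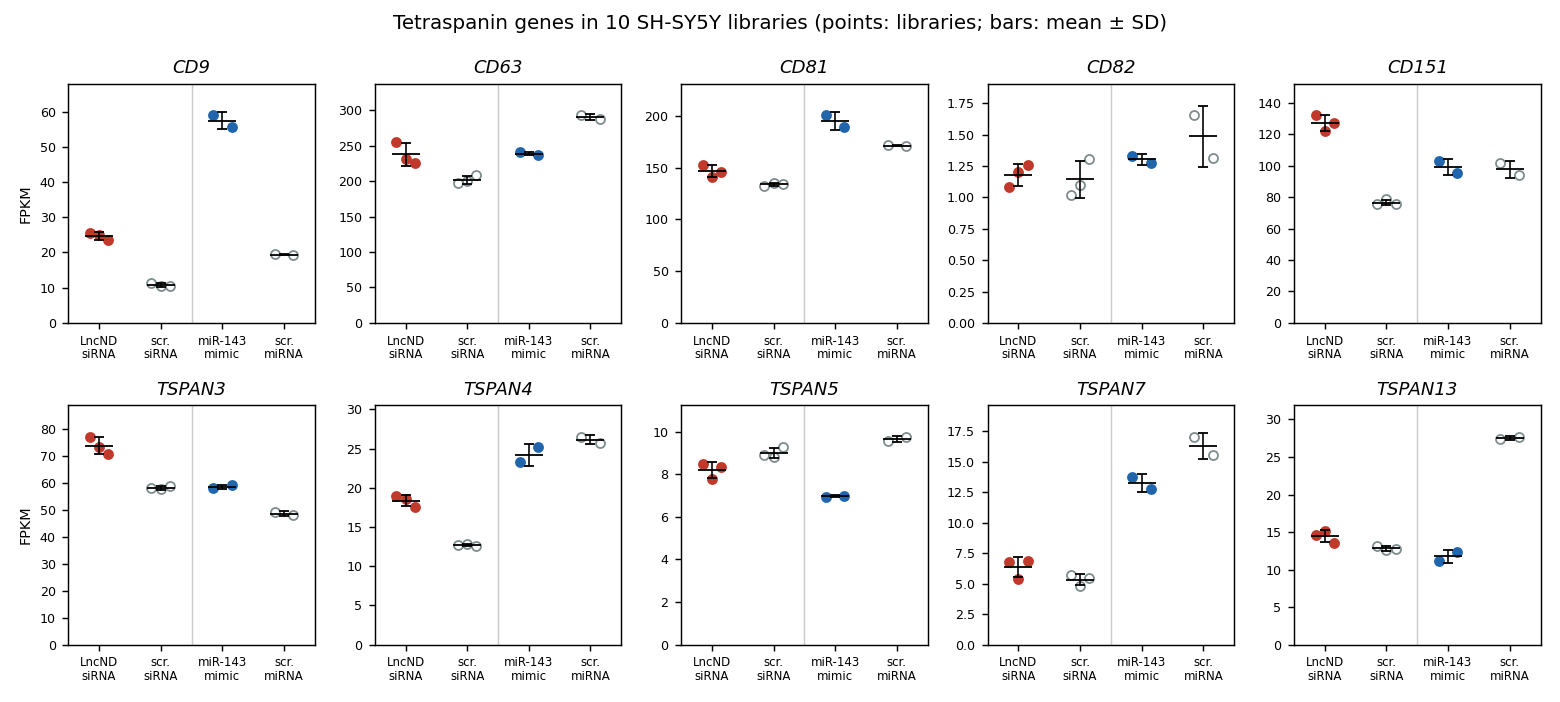
FPKM of each of the 10 tetraspanin genes (vertical axes, from 0, each on its own scale) in the LncND siRNA, scrambled siRNA, miR-143-3p mimic and scrambled miRNA libraries; points are libraries, filled for treated cells and open for controls, and bars are mean ± SD. CD9 is higher than its control in both pairs, CD151 and TSPAN4 are higher in the LncND siRNA pair, and TSPAN13 is lower in the mimic pair.

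LncND siRNA was compared with scrambled siRNA to ask how these genes responded when LncND was targeted. Of the 10 tetraspanin genes, 8 rose, 1 fell and CD82 did not pass the test. CD9 rose most, to 2.31 times the mean FPKM of scrambled siRNA, and CD151 and TSPAN4 followed. The other 5 rises, in TSPAN3, CD63, TSPAN7, TSPAN13 and CD81, were below 1.3-fold, and TSPAN5 fell slightly. These are calls at an adjusted p under 0.05 from limma on log2(FPKM + 1), adjusted over all 12601 genes tested, of which 66.9% were called, 36.6% as rises and 30.3% as falls (4613 and 3818 genes). That split became 4257 rises and 4200 falls under median-ratio scaling and 4026 and 4658 under quantile normalization, where 7 and 6 of the 10 genes were called as rises and 1 as a fall. Most genes of these cells were therefore called, and a call by itself says little about a tetraspanin. The median log2 fold change was 0.22 over the 10 genes, against 0.02 over all genes tested. In bulk RNA, fewer cells of a type and less RNA per cell cannot be told apart.

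Among the tetraspanins that act in adhesion at the cell surface, CD9, which also takes part in membrane fusion, had 25.7, 25.1 and 23.5 FPKM in LncND siRNA replicates 1 to 3, against 11.3, 10.4 and 10.5 FPKM in scrambled siRNA replicates 1 to 3. Every LncND siRNA library stood above every scrambled siRNA library, with a wide gap. The log2 fold change was 1.13 ± 0.046 (SE; limma adjusted p = 3.82e-08). It ranked 189 by rise among the 12601 genes, and it was among the 304 genes (2.41% of those tested) that were called with a rise of at least 2-fold on the log2(FPKM + 1) scale, while 0.151% were called with a fall of that size. CD9 lies at chr12:6309482-6347437 (hg19), and no other listed gene overlaps it.

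CD151, which binds the laminin-binding integrins, had 132, 122 and 127 FPKM in the LncND siRNA libraries, against 75.3, 78.6 and 75.7 FPKM in the scrambled siRNA libraries. The groups were far apart, and the log2 fold change was 0.72 ± 0.042 (SE; limma adjusted p = 2.76e-07). TSPAN4, best known from the migrasomes that moving cells leave behind, had 18.9, 18.5 and 17.6 FPKM with LncND siRNA, against 12.7, 12.9 and 12.6 FPKM with scrambled siRNA. Again no libraries overlapped, and the log2 fold change was 0.50 ± 0.039 (SE; limma adjusted p = 2.17e-06). Both genes lie close together on chromosome 11, at chr11:832952-838835 and chr11:842824-867116 (hg19), with 3988 bases between them. The 1 gene listed in that gap, POLR2L, which encodes a small RNA polymerase subunit and was chosen after its values were seen, averaged 85.0 FPKM with LncND siRNA and 44.4 FPKM with scrambled siRNA (log2 fold change 0.92 ± 0.053, SE; limma adjusted p = 2.88e-07). The strand setting of the quantification is not given in the sources used here.

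CD81, a tetraspanin found on most cell types, had 153, 141 and 146 FPKM with LncND siRNA, against 133, 135 and 134 FPKM with scrambled siRNA. The libraries did not overlap, but the step was small, with a log2 fold change of 0.13 ± 0.042 (SE; limma adjusted p = 0.0199). The call for CD81 was lost under quantile normalization, and also without scrambled siRNA replicate 1 (adjusted p = 0.0668) or replicate 3 (adjusted p = 0.0535). CD82 had 1.08, 1.20 and 1.26 FPKM with LncND siRNA, against 1.02, 1.101 and 1.30 FPKM with scrambled siRNA. The CD82 libraries of both groups were interleaved, and the 95% interval of its log2 fold change ran from -0.13 to 0.18 (limma adjusted p = 0.755).

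The endosomal tetraspanin CD63 had 256, 231 and 226 FPKM with LncND siRNA, against 198, 199.7 and 208 FPKM with scrambled siRNA. Replicate 1 of LncND siRNA, the library with the RNY4 value, was the highest, and the groups did not overlap. The log2 fold change was 0.23 ± 0.054 (SE; limma adjusted p = 0.00320), and it was 0.18 without that library (adjusted p = 0.00157). TSPAN3, reported as a partner of a claudin in oligodendrocytes, had 77.2, 73.4 and 70.9 FPKM with LncND siRNA, against 58.0, 57.7 and 58.9 FPKM with scrambled siRNA. Its groups did not overlap either, and the log2 fold change was 0.34 ± 0.040 (SE; limma adjusted p = 3.95e-05).

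Small changes were seen in the other 3 genes, TSPAN7, TSPAN13 and TSPAN5. TSPAN7, a neuronal tetraspanin that binds PICK1 and helps traffic AMPA receptors, had 6.80, 5.39 and 6.85 FPKM with LncND siRNA, against 5.73, 4.84 and 5.43 FPKM with scrambled siRNA. Replicate 2 of LncND siRNA fell inside the range of the controls. The log2 fold change was 0.21 ± 0.084 (SE; limma adjusted p = 0.0474), a call lost in 8 of 12 alternative settings, where the adjusted p ran from 0.00298 to 0.222 over all 12. Among them were the fits without LncND siRNA replicate 1 (0.137), LncND siRNA replicate 3 (0.146), scrambled siRNA replicate 2 (0.173) or scrambled siRNA replicate 3 (0.0805).

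TSPAN13, reported to bind a neuronal calcium channel, had 14.7, 15.1 and 13.6 FPKM with LncND siRNA, against 13.2, 12.6 and 12.8 FPKM with scrambled siRNA. The groups did not overlap, and the log2 fold change was 0.16 ± 0.045 (SE; limma adjusted p = 0.0106). TSPAN5, a TspanC8 member, had 8.47, 7.78 and 8.36 FPKM with LncND siRNA, against 8.93, 8.82 and 9.28 FPKM with scrambled siRNA. It was the 1 tetraspanin of the 10 that fell, with a log2 fold change of -0.12 ± 0.045 (SE; limma adjusted p = 0.0343). The TSPAN5 call was lost without a filter on low values (0.0655) and without scrambled siRNA replicate 1 (0.0684), scrambled siRNA replicate 3 (0.125) or LncND siRNA replicate 2 (0.139).

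In all, the libraries of both groups did not overlap in 8 of the 10 genes, 7 of them higher and 1 lower with LncND siRNA, against 70.9% of the genes tested, 38.7% higher and 32.2% lower. Without LncND siRNA replicate 1, 8 of the 10 were called, 7 as rises and 1 as a fall, and CD9 had a log2 fold change of 1.11. In that fit 8598 of all 12601 genes were called, 4635 as rises and 3963 as falls. Epithelial markers moved in the same samples: their summed FPKM over 10 genes was 13.3 to 13.6 with LncND siRNA, against 3.96 to 4.09 with scrambled siRNA, and the highest of them, MUC1, averaged 9.03 FPKM with LncND siRNA and 2.52 FPKM with scrambled siRNA. Averaging at least 1 FPKM were 3 of those 10 genes with LncND siRNA and 1 with scrambled siRNA, while KRT5 was at 0.001 in every library of both groups. The Schwann and glial markers summed to 6.85 to 7.21 FPKM with LncND siRNA, against 3.75 to 3.93 FPKM with scrambled siRNA, mostly S100B. Their part in the tetraspanin differences was not tested.

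The mimic was compared with scrambled miRNA to ask how the same genes responded when miR-143-3p was raised. Here the family split: CD9, TSPAN3 and CD81 rose, TSPAN13, TSPAN5, CD63 and TSPAN7 fell, and CD82, TSPAN4 and CD151 did not pass the test. CD9 rose to 2.95 times the mean FPKM of scrambled miRNA, and TSPAN13 fell to 0.427 times it. The other 5 calls were smaller than 1.5-fold. Of all 12558 genes tested with limma, 63.3% were called, 24.6% as rises and 38.6% as falls (3094 and 4853 genes). That split depends on the scaling, with 3931 rises and 4052 falls under median-ratio scaling and 4145 and 3854 under quantile normalization, while the 7 tetraspanin calls kept their directions under both. The median log2 fold change was -0.11 over the 10 genes, against -0.06 over all genes tested.

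CD9 had 59.1 and 55.6 FPKM in mimic replicates 1 and 2, against 19.6 and 19.3 FPKM in scrambled miRNA replicates 1 and 2. Both mimic libraries were far above both controls, with a log2 fold change of 1.51 ± 0.047 (SE; limma adjusted p = 2.44e-08). It ranked 41 by rise, within the 0.916% of genes called with a rise of at least 2-fold on the log2(FPKM + 1) scale. Its 3′ UTR held no seed match, nor did those of 83.1% of the searched genes called as rises.

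TSPAN13 had 11.2 and 12.3 FPKM with the mimic, against 27.4 and 27.7 FPKM with scrambled miRNA. The groups were widely separated, and the log2 fold change was -1.16 ± 0.057 (SE; limma adjusted p = 2.64e-07). It ranked 139 by fall, within the 1.82% of genes called with a fall of at least 2-fold. TSPAN13 (chr7:16793351-16824161, hg19) carries the CATCTCA match printed above. Among the genes with a UTR searched, a match of either kind was present in 26.4% of those called as falls. It was present in 16.9% of those called as rises and 19.9% of those not called. These shares are descriptions, and UTR length was not accounted for in them.

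TSPAN5, with its pair of TCATCTC matches, had 6.95 and 6.997 FPKM with the mimic, against 9.54 and 9.77 FPKM with scrambled miRNA. Both mimic libraries were lower, with a log2 fold change of -0.42 ± 0.057 (SE; limma adjusted p = 0.000159). TSPAN3, with a match near the far end of its long UTR, went the other way, with 58.1 and 59.2 FPKM with the mimic, against 49.2 and 48.0 FPKM with scrambled miRNA. Its log2 fold change was 0.27 ± 0.042 (SE; limma adjusted p = 0.000399), and its groups did not overlap.

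Of the abundant vesicle tetraspanins, CD63 had 241 and 237 FPKM with the mimic, against 294 and 288 FPKM with scrambled miRNA. CD81 had 201 and 189 FPKM with the mimic, against 172 and 171 FPKM with scrambled miRNA. So CD63 was lower and CD81 higher, in both cases without overlap, with log2 fold changes of -0.28 ± 0.042 and 0.19 ± 0.045 (SE; limma adjusted p = 0.000269 and 0.00539). TSPAN7 had 13.8 and 12.7 FPKM with the mimic, against 17.1 and 15.6 FPKM with scrambled miRNA. The TSPAN7 groups did not overlap, and its log2 fold change was -0.28 ± 0.062 (SE; limma adjusted p = 0.00302). With no filter on low values, CD81 (adjusted p = 0.0811) and TSPAN7 (adjusted p = 0.106) lost their calls.

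The remaining 3 genes gave no call. CD151 had 103 and 95.4 FPKM with the mimic, against 101 and 93.7 FPKM with scrambled miRNA. These libraries alternated in level, and the 95% interval of the log2 fold change was -0.10 to 0.14 (limma adjusted p = 0.729); it was 0.14 and called under quantile normalization (adjusted p = 0.0421), and negative without mimic replicate 1 (-0.030) or scrambled miRNA replicate 2 (-0.033). TSPAN4 had 23.2 and 25.2 FPKM with the mimic, against 26.5 and 25.7 FPKM with scrambled miRNA. Both mimic libraries were below both controls, but the interval of -0.22 to 0.01 included 0 (adjusted p = 0.109); without mimic replicate 2 it was called, at -0.16 (adjusted p = 0.0270). CD82 had 1.33 and 1.27 FPKM with the mimic, against 1.66 and 1.31 FPKM with scrambled miRNA, and its interval was -0.33 to 0.11 (adjusted p = 0.355).

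The libraries of both groups did not overlap in 8 of the 10 genes, 3 of them higher and 5 lower with the mimic, against 81.9% of all genes tested, 33.7% higher and 48.2% lower. Epithelial markers summed to 3.46 to 3.74 FPKM with the mimic, against 3.60 to 3.73 FPKM with scrambled miRNA. The 10 Schwann and glial markers summed to 3.67 to 3.72 FPKM with the mimic, against 4.70 to 5.63 FPKM with scrambled miRNA, without overlap and mostly S100B. Their part in the tetraspanin differences was not tested.

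**Figure D2:**
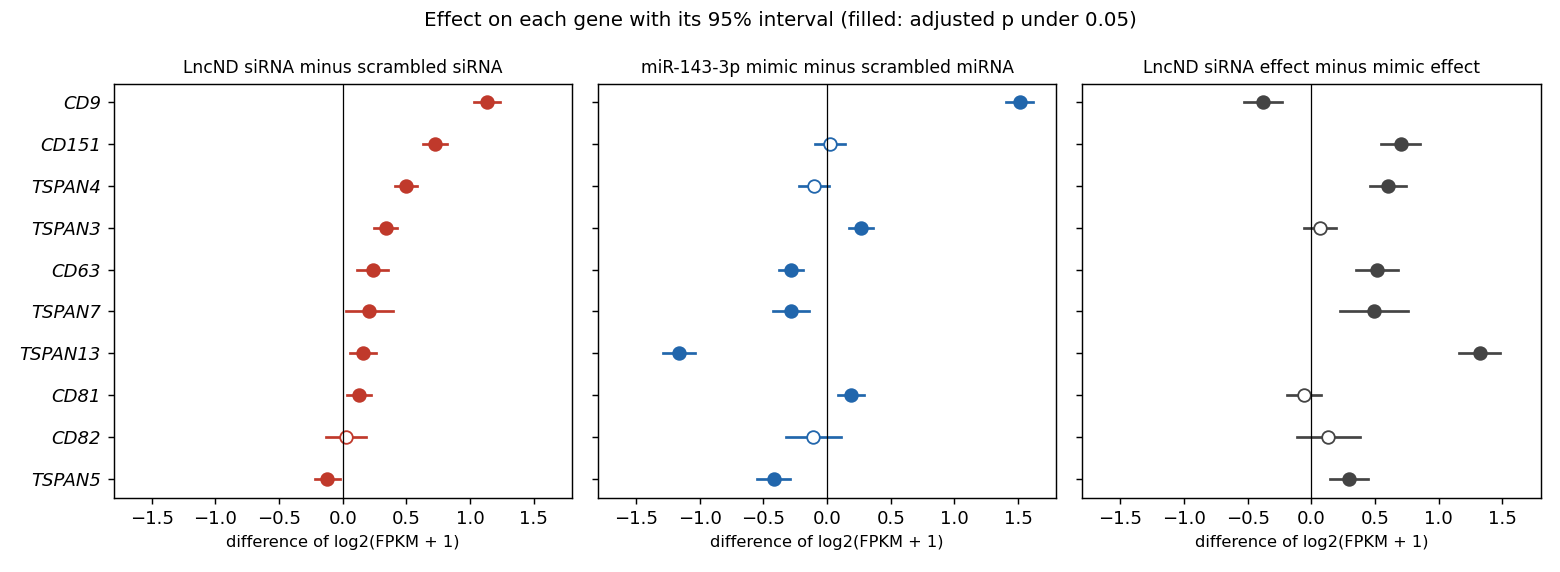
Difference of log2(FPKM + 1) with its 95% interval (horizontal axis) for each of the 10 genes in the LncND siRNA comparison, the mimic comparison and their difference; filled points had a limma adjusted p under 0.05. CD9 is at 1.13 with LncND siRNA and 1.51 with the mimic, while TSPAN13 is at 0.16 and -1.16.

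The effects of LncND siRNA and of the mimic were then set against each other in 1 limma fit of all 10 libraries, which share no control between the comparisons. The effects differed in 7 of the 10 genes, against 60.2% of the 12327 genes tested in both tables. The LncND siRNA effect was the more positive in TSPAN13, CD151, TSPAN4, CD63, TSPAN7 and TSPAN5, and the less positive in CD9. Over all genes 4699 called differences were positive (38.1%) and 2717 negative (22%), a split that became 3769 and 3675 under median-ratio scaling and 3480 and 4157 under quantile normalization. The 7 members kept their direction and call under both scalings.

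TSPAN13 differed most, by 1.32 ± 0.074 on the log2 scale (SE; adjusted p = 1.06e-08), with a small rise with LncND siRNA and a large fall with the mimic. CD151 differed by 0.70 ± 0.070 (adjusted p = 2.02e-06) and TSPAN4 by 0.60 ± 0.065 (adjusted p = 4.13e-06), both having been called with LncND siRNA and not with the mimic. CD63 differed by 0.52 ± 0.075 (adjusted p = 5.70e-05) and TSPAN7 by 0.49 ± 0.12 (adjusted p = 0.00400), each called as a rise with LncND siRNA and as a fall with the mimic. TSPAN5, a fall in both, fell by less with LncND siRNA, with a difference of 0.30 ± 0.068 (adjusted p = 0.00208). CD9 rose in both and less with LncND siRNA, with a difference of -0.38 ± 0.070 (adjusted p = 0.000406). The 2 controls were unlike in level, with TSPAN13 at 12.8 FPKM with scrambled siRNA and 27.5 FPKM with scrambled miRNA. Its treated means were 14.45 FPKM with LncND siRNA and 11.76 FPKM with the mimic. Scrambled miRNA was also the higher control in TSPAN7 (16.3 against 5.34 FPKM), TSPAN4 (26.1 against 12.7) and CD9 (19.4 against 10.7). The same held by a smaller ratio in CD63 and CD151, and least in TSPAN5 (9.66 against 9.01). Among the members left, CD81 and CD82 were also higher with scrambled miRNA, but TSPAN3 was lower (48.6 against 58.2). The source of these gaps was not tested.

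For the other 3 genes the test did not separate the effects. The interval of the difference was -0.05 to 0.20 for TSPAN3 and -0.19 to 0.08 for CD81, both of them called as rises in both comparisons. For CD82 it was -0.12 to 0.38. CD81 passed the test under median-ratio scaling (-0.15, adjusted p = 0.0460) and quantile normalization (-0.28, adjusted p = 0.00110).

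**Figure D3:**
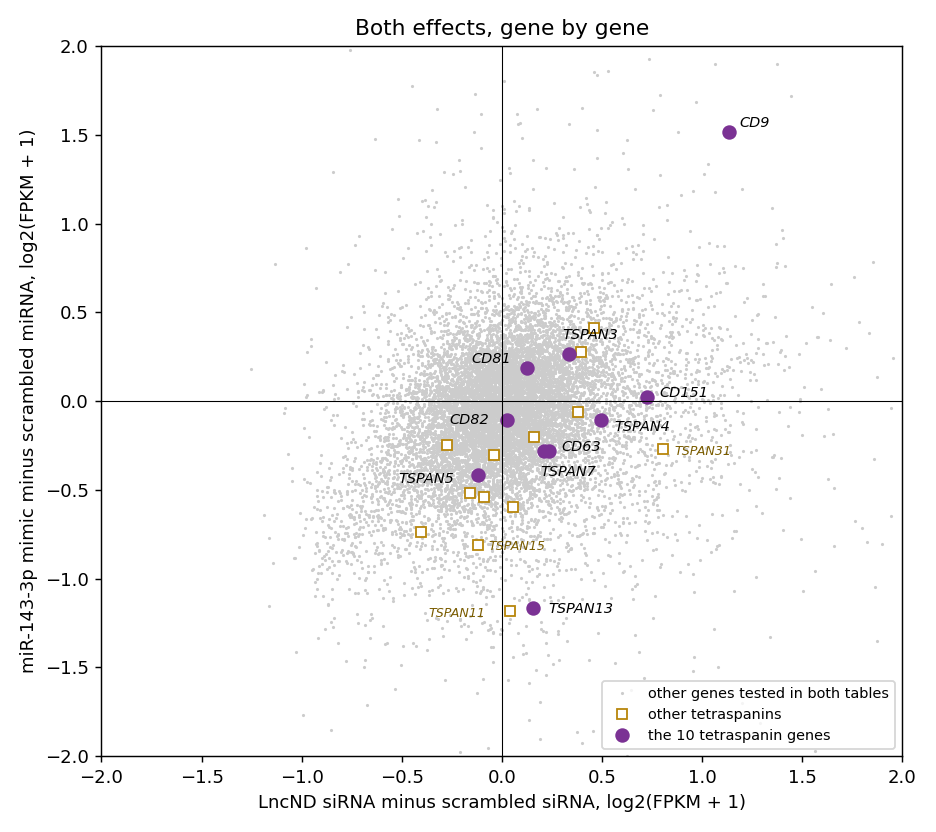
Log2 fold change with LncND siRNA (horizontal axis) against that with the mimic (vertical axis), both on the log2(FPKM + 1) scale; large points are the 10 tetraspanin genes, squares are the 13 other tetraspanins tested and small points are other genes, with 34 of the 12327 genes outside the axes. CD9 is at the upper right and TSPAN13 near the bottom, beside TSPAN11.

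The family has further members. Of 23 other tetraspanin genes, 13 had a mean of at least 1 FPKM in each table and were tested. With LncND siRNA 5 of the 13 rose, 3 fell and 5 did not pass (61.5% called, against 66.9% of all genes), with a median log2 fold change of 0.04, against 0.02 over all genes. TSPAN31, a gene amplified in some sarcomas, averaged 22.6 ± 0.485 FPKM with LncND siRNA and 12.5 ± 0.531 FPKM with scrambled siRNA (SD, n = 3 each; log2 fold change 0.81, limma adjusted p = 1.35e-07). Its locus (chr12:58138784-58142026, hg19) overlaps that of CDK4, which averaged 123 FPKM over the siRNA libraries, so reads of the pair may not be told apart. TSPAN9 (log2 fold change 0.46), TSPAN17 (0.40), ROM1 (0.38) and TSPAN2 (0.16) also rose, the last of them losing its call in 7 of 12 settings, and the ROM1 locus overlaps that of EML3. TSPAN12, a co-receptor in Norrin signalling, fell to 5.25 FPKM with LncND siRNA, against 7.28 FPKM with scrambled siRNA (log2 fold change -0.40), and TSPAN6 (-0.28) and TSPAN14 (-0.16) fell too. TSPAN15 (-0.12), TSPAN18 (-0.09), TSPAN8 (0.05), TSPAN33 (-0.04) and TSPAN11 (0.04) did not pass, TSPAN15 being called without scrambled siRNA replicate 1 (-0.17) or LncND siRNA replicate 1 (-0.17). TSPAN18 was called under median-ratio scaling (-0.11, adjusted p = 0.0255) and quantile normalization (-0.11, adjusted p = 0.0308).

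With the mimic, 9 of the same 13 genes fell, 2 rose and 2 did not pass (84.6% called, against 63.3% of all genes), and the median log2 fold change was -0.31, against -0.06 over all genes. TSPAN11 fell most, with 4.41 and 4.49 FPKM with the mimic, against 11.5 and 11.3 FPKM with scrambled miRNA (log2 fold change -1.18 ± 0.059, SE; limma adjusted p = 2.93e-07). The 2 groups were far apart. The principal transcript of TSPAN11 held no seed match, but 1 of its 4 searched transcripts did. TSPAN15 (-0.81), TSPAN12 (-0.74), TSPAN8 (-0.60), TSPAN18 (-0.54), TSPAN14 (-0.52), TSPAN33 (-0.31), TSPAN31 (-0.27) and TSPAN6 (-0.25) fell as well, though the TSPAN18 locus overlaps that of TP53I11. TSPAN9 (0.41) and TSPAN17 (0.28) rose, while TSPAN2 (-0.20) and ROM1 (-0.06) did not pass. Without the mean-variance trend in limma, TSPAN2 was called (adjusted p = 0.0173). Seed matches were present in the principal transcripts of 3 of the 13, against 21.7% of all genes searched. The 3 were TSPAN14 and TSPAN15, which fell, and TSPAN2, which did not pass. Besides TSPAN11, another transcript held a match in TSPAN31 (1 of 3 searched) and TSPAN6 (1 of 2). With no filter on low values TSPAN12, TSPAN8, TSPAN9 and TSPAN6 lost their calls, with adjusted p of 0.0510 to 0.0849, and the list had 6 falls and 1 rise. In that setting 5327 of all 23426 genes were called, 2000 as rises and 3327 as falls.

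The 10 tetraspanins that were not tested averaged below 1 FPKM in every group. They include CD37 and CD53, tetraspanins of white blood cells, and the uroplakins UPK1A and UPK1B of the bladder. CD37 averaged 0.893 ± 0.196 FPKM with LncND siRNA and 0.156 ± 0.0437 FPKM with scrambled siRNA (SD, n = 3 each), without overlap, but its locus overlaps that of TEAD2, which averaged 49.2 FPKM over the siRNA libraries.

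The TspanC8 tetraspanins were also counted as a group with the sheddases ADAM10 and ADAM17. Its tetraspanins were already counted above, TSPAN5 among the members and the rest among the other tetraspanins. ADAM10 is counted again among the partners below. Of the 7 genes tested in this group (TSPAN5, TSPAN14, TSPAN15, TSPAN17, TSPAN33, ADAM10 and ADAM17), 2 rose and 2 fell with LncND siRNA, a called share of 57.1%, below the 66.9% of all genes, with a median log2 fold change of -0.04, against 0.02. With the mimic 5 fell and 1 rose, a called share of 85.7%, against 63.3% of all genes, of which 38.6% were falls, with a median of -0.33, against -0.06. TSPAN15 had 5.96 and 5.56 FPKM with the mimic, against 10.97 and 10.69 FPKM with scrambled miRNA (log2 fold change -0.81 ± 0.061, SE; limma adjusted p = 3.66e-06). TSPAN14 had 8.54 and 8.38 FPKM with the mimic, against 12.3 and 12.8 FPKM with scrambled miRNA (-0.52 ± 0.056, SE; adjusted p = 3.38e-05). Both had lower mimic libraries without overlap, and both carry seed matches, 1 in the 691-base UTR of TSPAN15 and 5 in the 15147-base UTR of TSPAN14. Over all transcripts searched, a match stood in 1 of 1 for TSPAN15 and 2 of 7 for TSPAN14. The TSPAN15 site is shown because that gene fell most in the group and its UTR is short.
TSPAN15, chr10:69507292-69507298, plus strand (GRCh38): cagggcccattTCATCTCtggcagtgcct

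ADAM10, the sheddase that these tetraspanins escort, moved in opposite directions. It had 19.3, 22.9 and 22.9 FPKM with LncND siRNA, against 18.8, 18.1 and 17.1 FPKM with scrambled siRNA, a log2 fold change of 0.25 ± 0.065 (SE; limma adjusted p = 0.00588) that was lost without a filter on low values (adjusted p = 0.0708). It had 12.7 and 13.1 FPKM with the mimic, against 15.96 and 16.98 FPKM with scrambled miRNA, a log2 fold change of -0.33 ± 0.054 (SE; limma adjusted p = 0.000524). Neither pair of groups overlapped, and the effects differed by 0.58 ± 0.095 (SE; adjusted p = 0.000161). The 8740-base UTR of ADAM10 held 3 seed matches, and 1 of its 4 searched transcripts held any. TSPAN33 also fell with the mimic, with no match, and TSPAN17 rose in both comparisons. The LncND siRNA effect was more positive than the mimic effect by 0.69 ± 0.093 in TSPAN15, 0.36 ± 0.060 in TSPAN14 and 0.26 ± 0.083 in TSPAN33 (SE; adjusted p from 3.23e-05 to 0.0148), and the difference in TSPAN17 did not pass (interval -0.01 to 0.25). ADAM17, the related sheddase that does not travel with these tetraspanins, did not pass in either (log2 fold changes 0.03 with LncND siRNA and -0.08 with the mimic).

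**Figure D4:**
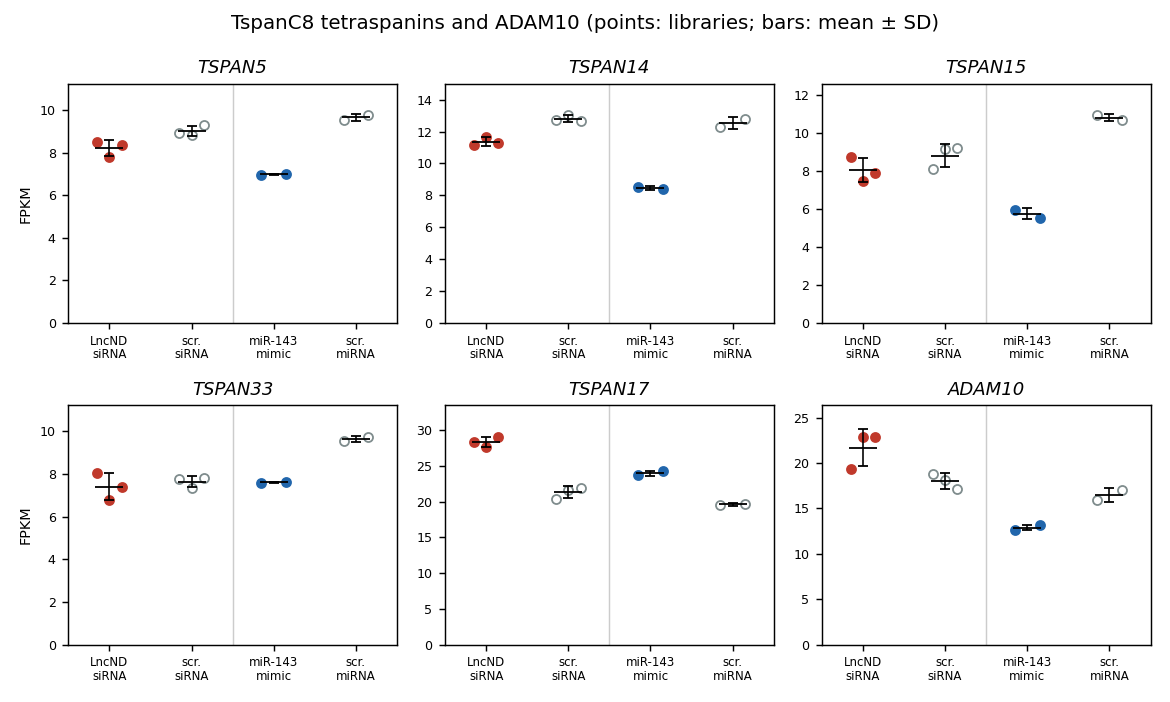
FPKM (vertical axes, from 0) of 5 TspanC8 tetraspanins and ADAM10 in the LncND siRNA, scrambled siRNA, miR-143-3p mimic and scrambled miRNA libraries; points are libraries, filled for treated cells and open for controls, and bars are mean ± SD. With the mimic all of them except TSPAN17 are lower than with scrambled miRNA.

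The proteins that tetraspanins bind were read from a list of 20 partners. With LncND siRNA 9 of the 11 tested rose and none fell (81.8% called, against 66.9% of all genes), with a median log2 fold change of 0.37, against 0.02 over all genes. ITGA3, the integrin chain most firmly tied to CD151, averaged 10.8 ± 0.456 FPKM with LncND siRNA and 4.18 ± 0.111 FPKM with scrambled siRNA (SD, n = 3 each; log2 fold change 1.18, limma adjusted p = 2.70e-08). ITGA6 (0.75) and ITGA7 (0.58), which are also laminin-binding chains, and IGSF8 (0.43), a direct partner of CD9 and CD81, rose too. The 2 that did not pass were PTGFRN (0.08) and IGSF3 (0.07).

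With the mimic, 6 of the 11 partners with at least 1 FPKM in both groups fell, 2 rose and 3 did not pass, with a median log2 fold change of -0.31, against -0.06 over all genes, of which 63.3% were called. ITGA7 averaged 2.45 ± 0.374 FPKM with the mimic and 5.49 ± 0.464 FPKM with scrambled miRNA (SD, n = 2 each; log2 fold change -0.91, limma adjusted p = 2.25e-05). ITGA6 (-0.84) and the growth factor HBEGF (-0.47), which CD9 binds, fell as well. ITGA4 averaged 0.841 FPKM with the mimic and 2.17 FPKM with scrambled miRNA; it passed the filter only through its controls and is left out of these counts. The effects of LncND siRNA and the mimic differed by 1.498 ± 0.070 in ITGA3, 1.592 ± 0.090 in ITGA6 and 1.497 ± 0.12 in ITGA7 (SE; adjusted p from 2.18e-09 to 2.52e-07). In CD9 both effects were positive.

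The vesicle machinery gave mixed counts. With LncND siRNA 11 of 23 tested genes rose, 3 fell and 9 did not pass, a called share of 60.9%, below the 66.9% of all genes, with a median log2 fold change of 0.08, against 0.02. SMPD3, the neutral sphingomyelinase that helps form exosomes, rose to 4.18 FPKM with LncND siRNA, against 2.41 FPKM with scrambled siRNA (log2 fold change 0.60), and CHMP2A (0.56), FLOT1 (0.52) and CHMP4A (0.40) rose too. With the mimic 5 rose, 10 fell and 8 did not pass, a called share of 65.2%, near the 63.3% of all genes, with a median of -0.06, which was also the median of all genes. SDCBP, the syntenin that links syndecans to vesicle budding, fell to 81.0 FPKM with the mimic, against 132 FPKM with scrambled miRNA (log2 fold change -0.70), and SDC4 (-0.57), SDC1 (-0.54) and RAB11A (-0.52) fell as well. With no filter on low values the mimic counts were 3 rises and 5 falls, in a setting where 5327 of all 23426 genes were called.

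The lysosomal membrane proteins, listed because CD63 resides in the same compartment, showed 5 rises, 2 falls and 5 genes that did not pass among 12 with LncND siRNA, a called share of 58.3%, below the 66.9% of all genes. OSTM1 rose to 12.7 FPKM with LncND siRNA, against 5.37 FPKM with scrambled siRNA (log2 fold change 1.11), and TMEM192 (0.52) and the calcium channel MCOLN1 (0.43) rose, while SCARB2 fell (-0.20). With the mimic 3 rose, 2 fell and 7 did not pass, a called share of 41.7%, below the 63.3% of all genes. MCOLN1 (0.52), the chloride transporter CLCN7 (0.37) and SCARB2 (0.20) rose and LAPTM4B fell (-0.18). With no filter on low values CLCN7 and SCARB2 lost their calls and the counts were 1 rise and 2 falls. In that setting 5327 of all 23426 genes were called. LAPTM4B lost its call under quantile normalization (-0.01).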

How the data were processed

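Poly(A) RNA of 10 SH-SY5Y libraries, made with a stranded kit per the labels' protocols, was quantified by the authors, who deposited FPKM values in 1 table for siRNA and 1 for miRNA libraries. The submitters' processing notes name TopHat 1.0.0, Cufflinks and hg19. Not given in the sources used here were the annotation, the strand setting and any filter. Both tables had 25275 entries. After dropping 1304 that lay off assembled chromosomes, the entry with the highest mean was kept for each of 23585 genes. Status words stood in the place of a number in 292 entries (siRNA) and 282 (miRNA), none of them a tetraspanin named here. Because FPKM is scaled to each library's total, abundant transcripts can lower all others.

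Values were tested as log2(FPKM + 1), which understates the change of low genes, with limma 3.58.1 (eBayes with trend) in R 4.3.3. Each comparison was fitted within its own table on genes that averaged 1 FPKM or more. The 2-sided p-values were adjusted by Benjamini-Hochberg across all genes fitted, with a threshold of 0.05. The fits were also run on simulated data with far fewer changed genes than were called here, so that run does not measure the error in these data. The difference of effects came from 1 fit of all 10 libraries. Depth, estimated from the FPKM steps of 881 single-exon genes, was used in no test. Figures were drawn with matplotlib 3.10.9.

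The members and gene lists were chosen with earlier results of these data known. Named genes are the 10 members, all other tetraspanins tested, and from each other list up to 4 called genes with the largest absolute log2 fold change; ADAM17, PTGFRN, IGSF3, CD37 and POLR2L were named in addition, after their values were seen. Alternatives were a pseudocount of 0.1, no filter, median-ratio scaling, quantile normalization, no trend, a replicate block and leaving out each library.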

Additional observations from a re-analysis of the deposited data

How the results depend on the processing

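Among the members, the LncND siRNA calls of CD9, CD151, TSPAN4, TSPAN3, CD63 and TSPAN13 kept direction and call under every alternative run. So did the mimic calls of CD9, TSPAN13, TSPAN5, TSPAN3 and CD63. In the difference the same held for TSPAN13, CD151, TSPAN4, CD63, TSPAN7, TSPAN5 and CD9. With LncND siRNA, 6 to 9 of the 10 members were called over the alternatives (9 as reported), with the mimic 5 to 8 (7 as reported) and in the difference 7 or 8 (7 as reported). Leaving out each library gave 7688 to 8598 called genes with LncND siRNA, 6773 to 7574 with the mimic and 6571 to 7533 in the difference. Where this left 1 library in a group, that library was assumed to vary like the other group. Replicate numbers recur in the labels, which do not say that they pair libraries, so they were not taken as pairs. Same-numbered libraries deviated together with correlations of 0.068, 0.207 and -0.053 (siRNA) and 0.135 (miRNA). With 2 or 3 libraries a group, these values cannot decide whether the libraries were paired. With the replicate block, 8022 genes (8 members) were called with LncND siRNA, 8247 (7 members) with the mimic and 7123 (7 members) in the difference. It ended the LncND siRNA calls of CD81 (adjusted p = 0.0637) and TSPAN2 (0.0598) and no other call among the tetraspanins tested in either comparison. Values that changed sign were none of them called. Under quantile normalization these were CD82 with LncND siRNA (-0.12), ROM1 with the mimic (0.011) and the differences of TSPAN3 (-0.077) and CD82 (-0.052); under median-ratio scaling, the difference of TSPAN3 (-0.024). With 1 library left out at a time, values ran from -0.014 (without scrambled siRNA replicate 1) to 0.080 for CD82 and from -0.094 to 0.013 (without LncND siRNA replicate 2) for TSPAN33 with LncND siRNA. With the mimic they ran from -0.033 to 0.078 for CD151, negative without mimic replicate 1 (-0.030) or scrambled miRNA replicate 2, and from -0.22 to 0.096 for ROM1, positive without mimic replicate 1 (0.0014) or scrambled miRNA replicate 1. The cause was not tested. With no filter on low values the mimic called 5327 of 23426 genes (5 members), against 7947 of 12558 as reported. LncND siRNA then called 8545 of 23416 genes (7 members), and the TspanC8 list had 1 rise and 1 fall with it. Recomputing the list counts and the genes outside the 10 members was added after seeing the data. Genes near 1 FPKM, such as CD82, rest on few fragments, and 2 libraries a group give a loose estimate of the spread.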
